A study of Ovis aries with 24 samples.

Results

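The comparison described here set the livers of 4 preterm lambs that had been mechanically ventilated and given surfactant against the livers of 4 lambs that had never been ventilated, across all genes. The 8 livers were 8 of the 24 samples of a sheep (Ovis aries) series on liver and periventricular white matter, and they were chosen by their column labels alone. Each of the 4 surfactant lambs had received intratracheal Poractant alpha, a porcine lung surfactant, at 2.5 mL/kg and no budesonide. Animal 007 was a male of 127 days of gestation, and animals 032, 049 and 051 were females of 126 days. The 4 other lambs were unventilated, and their labels give none for both treatments. Animals 057 and 058 were males of 127 days, animal 059 was a female of 128 days, and animal 060 was of 128 days with no sex on its liver label. The labels state no breed, length of ventilation or time of sampling, and ventilation and surfactant cannot be told apart, because no liver compared here had one without the other. Both groups were preterm, so neither stands for a liver at term.

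The fetal liver makes most plasma proteins, stores glycogen, and is still a site of blood formation. After an injury elsewhere in the body, cytokines of the interleukin-6 family reach hepatocytes, act through the transcription factor STAT3, and switch on acute phase proteins, while cytokines of the interleukin-1 family act through NF-kB. Birth adds another set of changes, in which glucose production starts and the liver takes up work that the placenta did before.

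Poly-A RNA was read as paired-end reads and counted per gene, and the total count was 17565574 to 23175121 in the surfactant livers and 16391729 to 19404869 in the unventilated livers. Levels are given as CPM, the counts-per-million value of the TMM-scaled library, listed for surfactant animals 007, 032, 049 and 051 and for unventilated animals 057, 058, 059 and 060 in that order, and means are given ± SD over the 4 livers of a group. A gene was called at an adjusted p under 0.05 in edgeR's quasi-likelihood test. ALB, which encodes albumin, stood at 56181, 61128, 59123 and 61063 CPM in the surfactant livers and 64255, 60618, 79116 and 61831 CPM in the unventilated livers, and was not called, nor was AHSG, the fetuin-A gene, at 107723, 89965, 119772 and 94219 CPM in surfactant livers and 99301, 81365, 107967 and 88849.9 CPM in unventilated livers.

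Of 16824 genes tested, 6911 (41.1%) were called, 3629 (21.6%) higher and 3282 (19.5%) lower in the surfactant livers. A test against a 2-fold change called 951 genes (5.65%) as more than 2-fold higher and 394 (2.34%) as more than 2-fold lower, the count of falls being 798 without animal 007 and 253 without animal 051. The directions differed at the far end: 244 called genes had an estimated rise of over 16-fold and 10 an estimated fall of over 16-fold. The genes called higher held 32.1, 38.7, 40.9 and 47.8% of all counts in the surfactant livers, against 16.7 to 17.1% in the unventilated livers. The genes called lower held 9.2, 6.73, 6.07 and 5.05% of counts in the surfactant livers, against 17.9, 16.3, 17.6 and 17.2% in the unventilated livers. The median log2 fold change over all tested genes was -0.02. In 5623 of the 6911 called genes the CPM ranges of the groups did not overlap, against 6299 of all 16824 tested genes. The called genes were chosen on these same livers, so their count describes them and tests nothing.

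**Figure D1:**
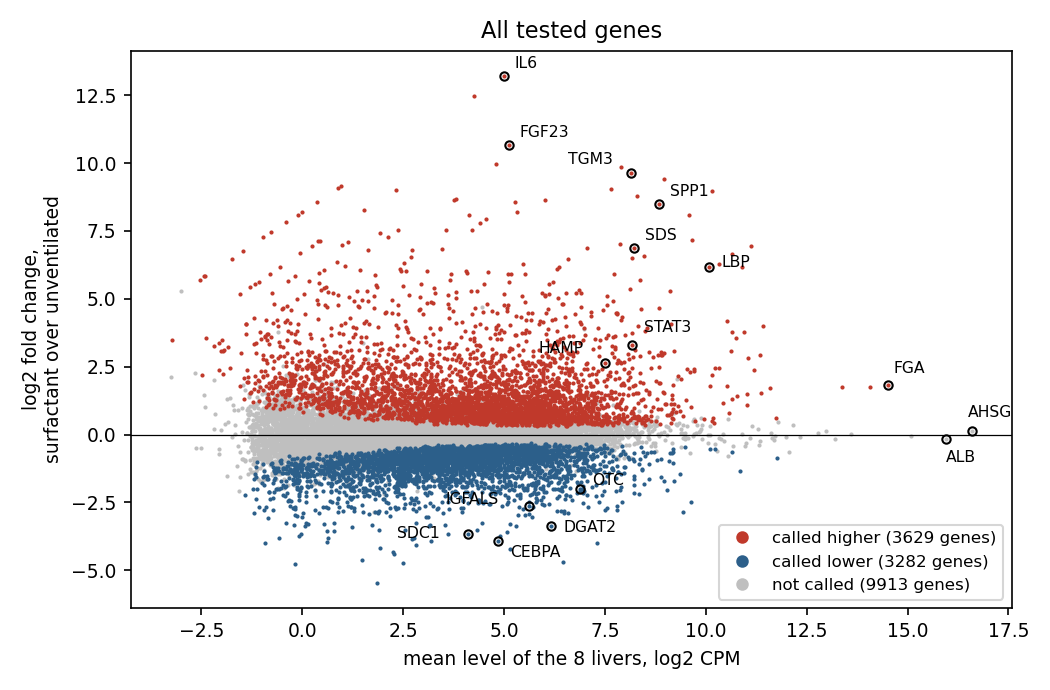
Log2 fold change of surfactant over unventilated liver (vertical axis) against the mean level of the 8 livers in log2 CPM (horizontal axis), 1 point per tested gene, with 16 genes named. The 3629 genes called higher reach further from 0 than the 3282 called lower, and the abundant plasma protein genes ALB and AHSG lie near 0 while FGA lies above it.

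The 4 surfactant livers formed a graded series and animal 007 lay nearest to the unventilated livers. The median log2 difference from the unventilated mean over the genes called higher was 0.68 in animal 007, 1.05 in 032, 1.32 in 049 and 1.43 in 051, and over the genes called lower it was -0.66, -0.99, -1.13 and -1.26. Animal 007 was the lowest surfactant liver in 63.8% of the genes called higher. It was still above all 4 unventilated livers in 3103 of those 3629 genes (85.5%), and below all 4 in 2925 of the 3282 genes called lower (89.1%). These called genes were chosen with animal 007 among the livers, so the shares describe them and test nothing. Animal 007 also differed from the other 3 surfactant livers in age and sex, and these cannot be told apart with 1 animal.

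**Figure D2:**
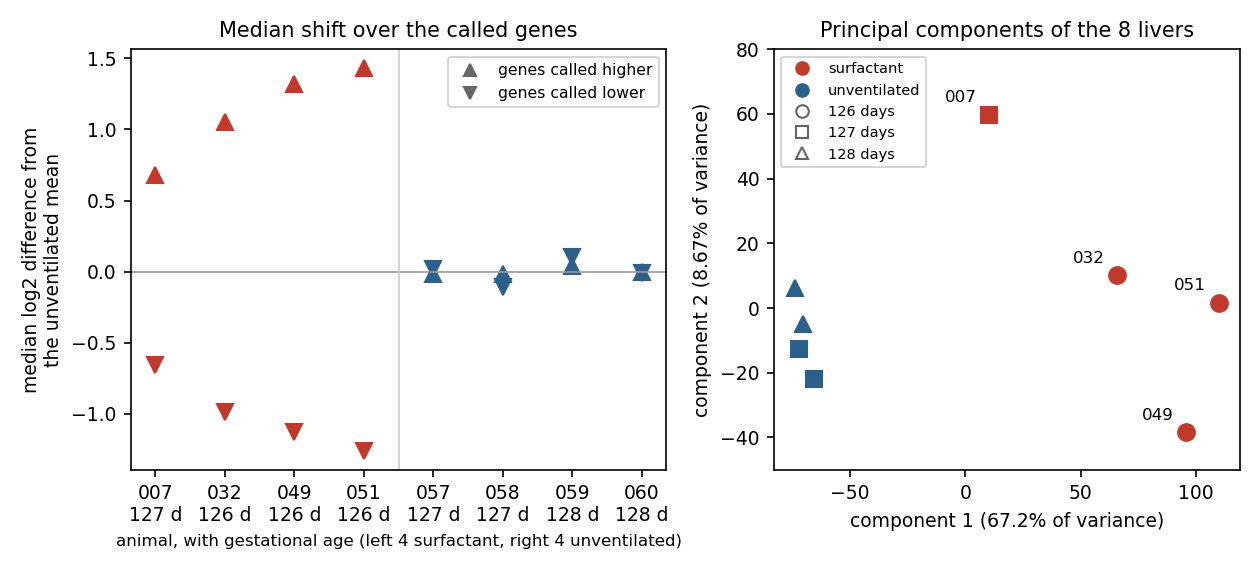
Left, the median log2 difference from the unventilated mean over genes called higher (upward triangles) and called lower (downward triangles) in each liver. Right, the first and second principal components of the 8 livers, with symbols for gestational age. The 4 unventilated livers lie together, animal 007 lies between them and the other 3 surfactant livers on component 1, and animal 051 lies farthest away.

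Gestational age, sex and ventilation were partly confounded. Between unventilated livers of 128 and 127 days, edgeR called 0 genes (0.0%), with 553 at an unadjusted p under 0.05. Between the surfactant liver of 127 days and the 3 of 126 days it called 81 (0.481%), 37 higher and 44 lower, with 3508 at an unadjusted p under 0.05. There the 127-day side was animal 007 alone, assumed to vary like the other groups, and its age, its sex and the animal itself cannot be told apart. With age as a covariate the comparison of surfactant with unventilated livers called 1398 genes (8.31%), of which 1362 were also called in the same direction without it. Within 127 days, where animal 007 faced animals 057 and 058 and all 3 were male, 577 genes (3.43%) were called, 543 of them among the 6911 in the same direction. The lone surfactant liver was assumed there to vary like the other groups. Of all 6911 called genes, 6907 kept their direction with age as a covariate and 6610 (95.6%) within 127 days. Both fits reuse livers of the main comparison, so a kept direction is not an independent check. Of the 116 called genes that are named, all kept their direction in both of these fits, 78 kept their call with age and 56 within 127 days. The 38 whose call ended with age were the cytokine and inflammatory genes IL6, IL1B, CX3CL1, TNFAIP3, NFKBIA, PTGS2, PTGER3, TLR4, S100A8, IFIT1 and IFIT2, the plasma protein genes C3, CPN1, SERPINA6, F5, F11 and KLKB1, the metabolic genes ABCB11, CAT, FMO5, G6PC, GLS2 and NQO1, the regulators CDKN1A, CRY2, FOS, HNF4A, ID1 and NR5A2, the hormone genes DIO3, FGF23, HAMP and STC1, the macrophage markers CLEC4F, MARCO and TIMD4, and SCNN1G and TGM3. All of these except G6PC also lost the call within 127 days. A further 23 lost it within 127 days alone: AKR1D1, AQP3, AQP11, ASL, BHMT, BMP6, CDO1, COL4A1, CPT2, EHHADH, EREG, HFE2, HGD, IGFALS, IHH, KRT17, LYVE1, ONECUT1, OTC, PPP1R3B, SCNN1B, SQLE and TEF.

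Few genes for abundant plasma proteins of the hepatocyte were called, while the fibrinogen chains rose. Of 21 tested genes for hepatocyte plasma proteins 2 were called higher and 0 lower, with a median log2 fold change of -0.05, and 0 were called higher in either fit for age. Both were modest: CPN1, a carboxypeptidase subunit that inactivates anaphylatoxins, averaged 202 ± 37.8 CPM in surfactant livers and 117 ± 22.4 CPM in unventilated livers, and SERPINA6, the cortisol-binding globulin gene, averaged 163 ± 41.9 CPM in surfactant and 92.5 ± 12.5 CPM in unventilated livers (n = 4 each). SERPINA1, TF, GC and APOB, which encode alpha-1-antitrypsin, transferrin, the vitamin D carrier and the main lipoprotein of the liver, were not called, with log2 fold changes of -0.05, 0.04, 0.04 and -0.08. AFP, the fetal albumin gene, ranged widely in both groups, from 727 to 2071 CPM in surfactant livers and from 501 to 2956 CPM in unventilated livers, and was not called.

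FGA, the fibrinogen alpha chain gene, had 27699, 36087, 33844 and 47063 CPM in the surfactant livers, against 9761, 10285, 12254 and 9033 CPM in the unventilated livers (log2 fold change 1.81 ± 0.19 SE, adjusted p = 3.34e-05). FGB and FGG, the other two chains, changed by log2 1.75 ± 0.18 and 1.75 ± 0.18. Together the CPM of the 3 genes came to 6.35, 7.65, 7.11 and 10.4% of the TMM-scaled library in the surfactant livers, against 2.16, 2.28, 2.71 and 2.04% in the unventilated livers. The shares of called genes above were instead taken of the unscaled total count. The fibrinogen shares were higher in the surfactant livers. The groups did not overlap in the fibrinogen sums. Of 21 tested coagulation genes 5 were called higher and 4 lower, or 2 lower without animal 059. The shares of 23.8% and 19.0% were near those of all tested genes, 21.6% and 19.5%. Coagulation counts were 3 higher and 0 lower with age as a covariate, and the same within 127 days. F5 averaged 587 ± 192 CPM in surfactant and 308 ± 29 CPM in unventilated livers and was called higher, while F11 and KLKB1, of the intrinsic and contact pathways, were called lower (log2 fold change -1.36, adjusted p = 0.00206 and log2 fold change -1.98, adjusted p = 0.00222). F2 and SERPINC1, for prothrombin and antithrombin, were not called, at 948 ± 121 CPM in surfactant and 882 ± 120.2 CPM in unventilated livers and at 2409 ± 108 CPM in surfactant and 2822 ± 615 CPM in unventilated livers.

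Of 13 tested acute phase genes 12 were called higher and 0 lower, with a median log2 fold change of 3.57. The count was 6 with age as a covariate and 5 within 127 days. LBP, which binds bacterial endotoxin and hands it to immune receptors, had 719.6, 2092, 2286 and 3487 CPM in the surfactant livers and 42, 35.7, 8.11 and 34.5 CPM in the unventilated livers (log2 fold change 6.16 ± 0.64 SE, adjusted p = 3.33e-05). Every surfactant liver exceeded every unventilated liver, animal 007 least, and animal 059 was the lowest of the unventilated livers. ITIH4, an inter-alpha-trypsin inhibitor family member, had 2783, 4292, 5554 and 5658 CPM in surfactant livers, against 594, 478, 779 and 539 CPM in unventilated livers (log2 fold change 2.94 ± 0.24 SE, adjusted p = 7.85e-06). In the complement list 5 of 19 (26.3%) were called higher and 0 lower, against 21.6% and 19.5% of all tested genes. The share called higher was near that of all tested genes. This list had a median log2 fold change of 0.40, and 2 were called higher with age as a covariate and 1 within 127 days. C4BPA, which restrains the classical pathway, led it at 796 ± 271 CPM in surfactant and 105 ± 32.8 CPM in unventilated livers, while C3 averaged 701 ± 55.1 CPM in surfactant and 473 ± 74.5 CPM in unventilated livers, a called rise of log2 0.57 ± 0.16.

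Most signalling genes of the acute phase response were called higher as well. Of 25 tested genes of the JAK-STAT pathway and cytokine receptors 18 were called higher and 0 lower, with 11 called with age as a covariate and 10 within 127 days. STAT3, the transcription factor itself, had 306, 490.0, 603 and 682 CPM in the surfactant livers, against 60.4, 48.6, 48.6 and 51.3 CPM in the unventilated livers (log2 fold change 3.32 ± 0.23 SE, adjusted p = 3.22e-06). The 4 unventilated livers lay within 48.6 to 60.4 CPM, and animal 007, the lowest surfactant liver, stood far above them. SOCS1, a feedback inhibitor of the pathway, had 9.62, 23.2, 31 and 31.4 CPM in surfactant livers, against 1.4, 0.867, 1.23 and 1.29 CPM in unventilated livers (log2 fold change 4.31 ± 0.35 SE, adjusted p = 7.34e-06). SOCS3, the inhibitor that STAT3 induces, was lowest of the surfactant livers in animal 007, with 58.2, 212, 348 and 324 CPM in them and 6.31, 5.43, 6.29 and 7.46 CPM in the unventilated livers. Animal 007 differed from the other 3 by a log2 fold change of -2.34 (adjusted p = 0.0393 over all genes). IL6R, the interleukin-6 receptor gene, was not called, at 447 ± 128 CPM in surfactant and 330.5 ± 54 CPM in unventilated livers.

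The cytokine and NF-kB genes were highest in animals 049 and 051. Of 16 tested cytokine and chemokine genes 10 were called higher and 1 lower, and of 19 tested NF-kB subunits, feedback genes and adhesion targets 15 were called higher and 0 lower. With age as a covariate 1 of the 16 and 3 of the 19 were called higher, and within 127 days 1 and 2. IL6 had 0.222, 0.72, 113 and 142 CPM in the surfactant livers and 0 counts in all 4 unventilated livers, so animals 049 and 051 carried nearly all of it. Against a floor of 3 counts over the unventilated group its mean was at least 1540-fold higher. IL1B had 12.9, 12.8, 140.5 and 176 CPM in surfactant livers and 8.09, 10.4, 5.12 and 7.72 CPM in unventilated livers (log2 fold change 3.45 ± 0.78 SE, adjusted p = 0.00422). Animals 007 and 032 lay just above the unventilated range and animals 049 and 051 far above it.

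TNFAIP3, which encodes the NF-kB brake A20, had 25.1, 26.7, 485 and 551 CPM in surfactant livers, against 14.5, 10.6, 9.23 and 13 CPM in unventilated livers (log2 fold change 4.52 ± 0.89 SE, adjusted p = 0.0019), with the same pair of livers high. NFKBIA, the gene of the inhibitor IkB-alpha, showed 68, 42.1, 308 and 323 CPM in surfactant livers and 25.9, 21.3, 23.3 and 22.2 CPM in unventilated livers. BCL3 and MAP3K8, an NF-kB partner and the kinase that couples NF-kB to MAP kinase signalling, were raised more evenly. BCL3 had 42.6, 51.6, 109 and 119 CPM in surfactant livers, against 4.19, 6.12, 7.41 and 6.56 CPM in unventilated livers (log2 fold change 3.73 ± 0.34 SE, adjusted p = 1.46e-05). MAP3K8 had 26.8, 50.1, 64.9 and 85 CPM in surfactant livers, against 2.94, 3.2, 3.82 and 5.63 CPM in unventilated livers (log2 fold change 3.86 ± 0.37 SE, adjusted p = 2.11e-05). The mean log2 difference of the NF-kB list from the unventilated mean was 0.88, 1.14, 2.76 and 3.04 in the 4 surfactant livers, whereas the acute phase list stood at 2.36, 3.12, 3.66 and 4.24. CX3CL1, a membrane-bound chemokine, was the 1 list member called lower, at 9.9, 4.62, 17.2 and 8.9 CPM in surfactant livers, against 29.9, 37.2, 48.2 and 39 CPM in unventilated livers. Of the 14 tested neutrophil and monocyte markers 7 were called higher, but 0 with age as a covariate and 0 within 127 days. Their summed level ran from 172 to 442 CPM in surfactant livers and from 116 to 209 CPM in unventilated livers. A large part of these sums was AQP9, a list member outside the 140 genes counted as named. AQP9 averaged 80.24 CPM in surfactant and 69.49 CPM in unventilated livers and was not called. The sums are therefore not read as a level of neutrophils and monocytes. In animal 049, one of the 2 livers with high cytokine genes, the neutrophil list stood 0.20 above the unventilated mean on the log2 scale, below the other 3 surfactant livers. Unventilated animal 058 stood at 0.50 on that scale, so animal 049 lay within the unventilated range. The part of these cells in the cytokine result was not tested.

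**Figure D3:**
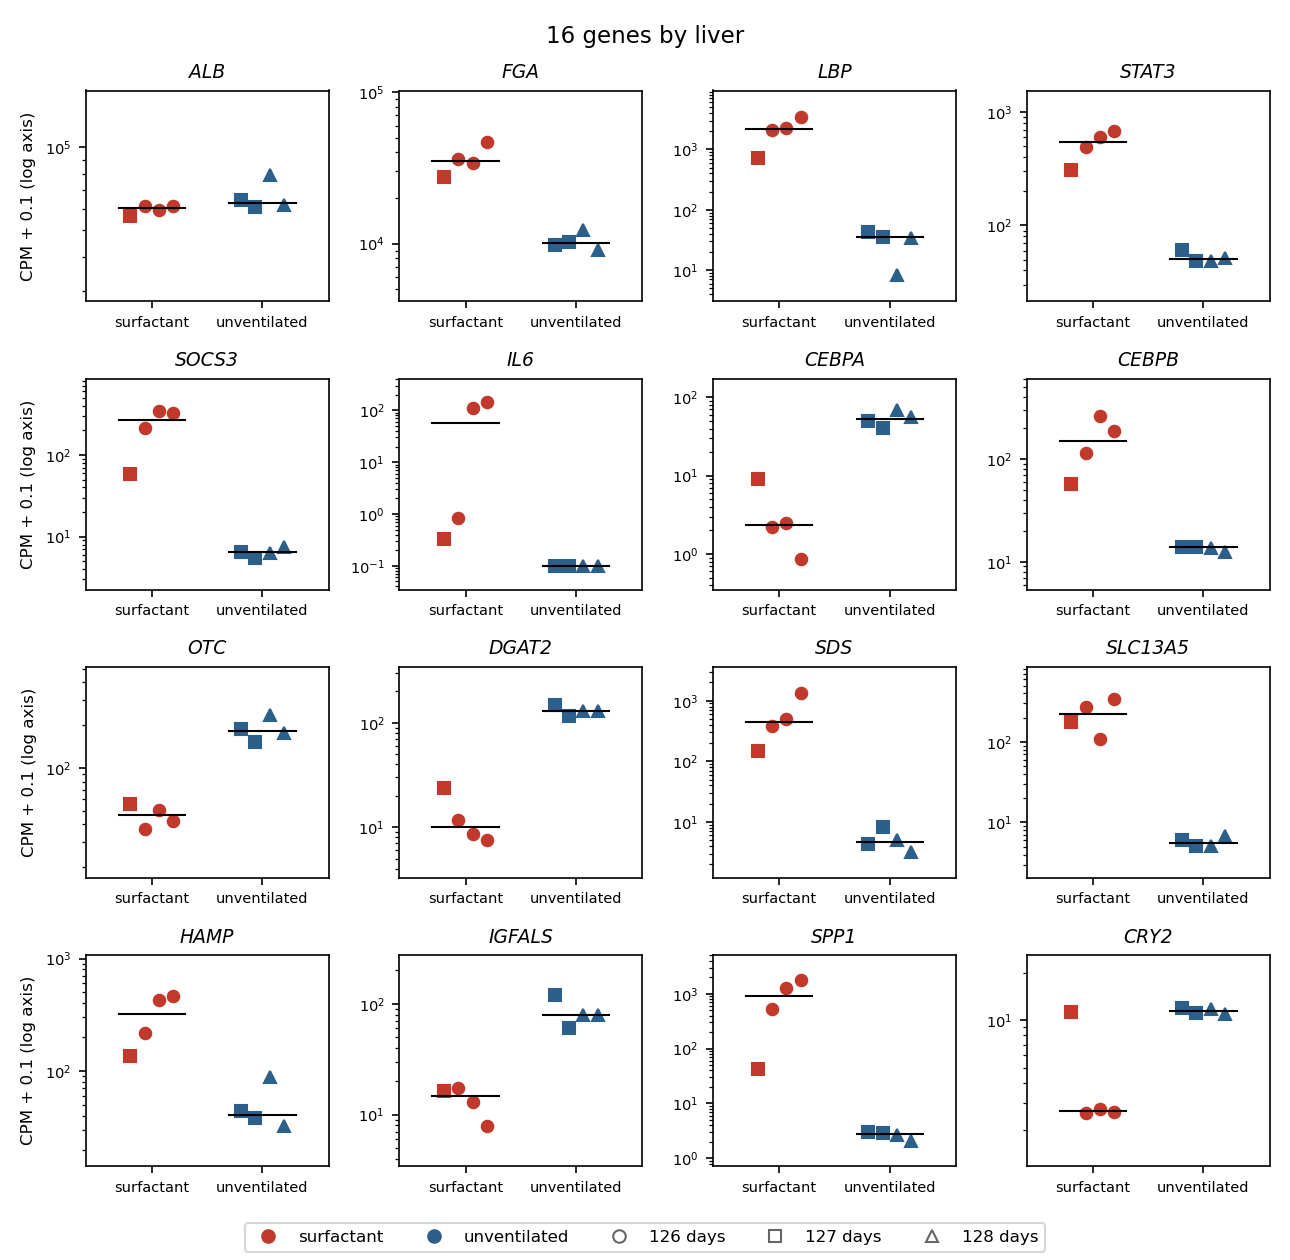
CPM plus 0.1 on a log axis for 16 genes in each liver, surfactant to the left and unventilated to the right, with symbols for gestational age and a bar at the group median. STAT3, LBP, CEBPB and SDS separate all 4 surfactant livers from the unventilated ones, IL6 is high in 2 of the 4, and CRY2 in animal 007 lies at the unventilated level.

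Most transcription factors that maintain hepatocytes were called lower. Of 22 tested hepatocyte transcription factors and nuclear receptors 14 were called lower and 3 higher, with a median log2 fold change of -0.86, and 3 were called lower with age as a covariate and 1 within 127 days. CEBPA, a factor that keeps hepatocytes quiescent and metabolically active, had 9.06, 2.1, 2.39 and 0.772 CPM in the surfactant livers, against 49.1, 40, 69.4 and 56.8 CPM in the unventilated livers (log2 fold change -3.91 ± 0.61 SE, adjusted p = 0.00048). Its relative CEBPB, which acts in the acute phase response, had 56.9, 114, 260.1 and 189 CPM in surfactant livers, against 13.8, 13.9, 13.6 and 12.4 CPM in unventilated livers (log2 fold change 3.53 ± 0.37 SE, adjusted p = 3.68e-05). The groups overlapped for neither gene, as was so for most called genes, and animal 007 was nearest to the unventilated livers for both.

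ONECUT1, a factor of hepatocyte differentiation, had 48.6, 37.1, 17.8 and 18.6 CPM in surfactant livers and 128, 109, 134 and 122 CPM in unventilated livers (log2 fold change -2.02 ± 0.31 SE, adjusted p = 0.000406). NR2F6, an orphan nuclear receptor that was not a member of this list, fell to 10.5, 7.14, 4.61 and 4.01 CPM, against 66.6, 60.6, 79.5 and 53 CPM in unventilated livers (log2 fold change -3.31 ± 0.32 SE, adjusted p = 1.99e-05). HNF4A, the central hepatocyte factor, sat at the threshold, with 326, 259.6, 176 and 279 CPM in surfactant livers and 467, 323, 599.9 and 432 CPM in unventilated livers (log2 fold change -0.81 ± 0.30 SE, adjusted p = 0.0474), and its call was lost without any 1 of animals 032, 049, 051, 057, 059 and 060 (adjusted p = 0.0643 to 0.123). NR5A2, a nuclear receptor that governs bile acid and cholesterol genes, went the other way, with 64, 263, 273 and 189 CPM in surfactant livers, against 44.3, 30.9, 50.7 and 41.7 CPM in unventilated livers (log2 fold change 2.23 ± 0.37 SE, adjusted p = 0.000643). Fewer cells of a type and less RNA per cell cannot be told apart in whole liver. In the same libraries 0 of the 21 plasma protein genes of the hepatocyte were called lower, but these genes do not measure the number of hepatocytes. The part of hepatocyte number in the lower factors was not tested.

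Metabolic lists fell in part. Of 22 tested sterol synthesis and uptake genes 17 were called lower and 1 higher, with a median log2 fold change of -1.23. With age as a covariate 14 were called lower, and within 127 days 4. FDPS, which makes farnesyl diphosphate, had 3.28, 3.24, 4.44 and 3.19 CPM in surfactant livers and 15, 10.9, 8.41 and 9.06 CPM in unventilated livers (log2 fold change -1.61 ± 0.22 SE, adjusted p = 0.000174). SQLE, the enzyme that commits squalene to sterols, had 7.62, 8.4, 25.3 and 7.05 CPM in surfactant livers, against 60.9, 44.2, 48 and 39.1 CPM in unventilated livers, with animal 049 the highest of the surfactant livers. Of 10 tested bile acid genes 6 were called lower and 1 higher, with 2 called lower with age as a covariate and 0 within 127 days. ABCB11, the bile salt export pump, averaged 198 ± 62.3 CPM in surfactant and 480.4 ± 99.7 CPM in unventilated livers, and AKR1D1, an enzyme of bile acid synthesis, averaged 87.6 ± 17.5 CPM in surfactant and 218 ± 19.2 CPM in unventilated livers.

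Nitrogen handling changed step by step. Of 11 tested urea cycle and glutamine genes 5 were called lower and 1 higher, and with age as a covariate 1 in each direction, but 0 within 127 days. OTC, which joins carbamoyl phosphate to ornithine, had 56.1, 36.8, 50.5 and 42.3 CPM in surfactant livers, against 188, 153, 234 and 177 CPM in unventilated livers (log2 fold change -2.02 ± 0.26 SE, adjusted p = 0.000128). ASL, which splits argininosuccinate, moved the other way, at 265, 239, 321 and 286 CPM in surfactant livers, against 116, 84.1, 112 and 92.5 CPM in unventilated livers (log2 fold change 1.46 ± 0.20 SE, adjusted p = 0.000213). Neither gene overlapped between groups, as was so for most called genes. CPS1 and ASS1, the entry enzyme and the enzyme before ASL, were not called (log2 fold change -0.37, adjusted p = 0.23 and log2 fold change -0.30, adjusted p = 0.404). GLS2, the liver glutaminase, had 33.1, 7.08, 20.3 and 15.2 CPM in surfactant livers, against 107, 83.8, 97.7 and 116 CPM in unventilated livers (log2 fold change -2.42 ± 0.51 SE, adjusted p = 0.00283).

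Of 30 tested amino acid breakdown genes 14 were called lower and 6 higher. Breakdown counts were 5 lower and 3 higher with age as a covariate, and 0 lower and 1 higher within 127 days. SDS, which turns serine into pyruvate, had 148, 386, 502 and 1334 CPM in surfactant livers and 4.29, 8.08, 4.94 and 3.13 CPM in unventilated livers (log2 fold change 6.86 ± 0.66 SE, adjusted p = 2.1e-05). Animal 051 was the highest. CDO1, the enzyme that oxidises cysteine, had 269, 557, 351 and 657 CPM in surfactant livers, against 104, 75.2, 119.8 and 73.5 CPM in unventilated livers (log2 fold change 2.30 ± 0.27 SE, adjusted p = 7.61e-05). In the opposite direction BHMT, which remethylates homocysteine with betaine, fell to 38.4, 18.7, 27.8 and 7.05 CPM in surfactant livers, against 179, 133, 202 and 162 CPM in unventilated livers (log2 fold change -2.88 ± 0.46 SE, adjusted p = 0.000516). HGD, an enzyme of tyrosine breakdown, fell to 66.6 ± 12.5 CPM in surfactant livers, against 244 ± 73.3 CPM in unventilated livers. The transporters that bring amino acids into the cell were among those higher. SLC38A4 and SLC38A2, sodium-coupled neutral amino acid carriers, averaged 1869 ± 240.2 CPM in surfactant and 408 ± 86.2 CPM in unventilated livers and 444 ± 137 CPM in surfactant and 93.3 ± 12.9 CPM in unventilated livers, and 7 of 14 tested amino acid transporters were called higher and 1 lower. The higher count was 2 both with age as a covariate and within 127 days.

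In glucose handling PCK1 and G6PC rose, while PPP1R3B, PGM1 and PHKA2 fell. Of 18 tested genes for gluconeogenesis, glycogen and glucose handling 8 were called higher and 4 lower. Counts here were 4 and 3 with age as a covariate, and 4 and 2 within 127 days. PCK1, the gatekeeper of gluconeogenesis, had 611, 519.8, 886 and 586 CPM in surfactant livers, against 40.7, 22.9, 32.9 and 9.73 CPM in unventilated livers (log2 fold change 4.62 ± 0.48 SE, adjusted p = 3.36e-05). G6PC, which releases free glucose, had 319, 153, 73.4 and 109 CPM in surfactant livers, against 37.1, 42.5, 52.3 and 44.1 CPM in unventilated livers (log2 fold change 1.90 ± 0.59 SE, adjusted p = 0.0222). Animal 007 was highest for it. Its call was lost without any 1 of animals 007, 057, 058 and 060 (adjusted p = 0.0501 to 0.0645). PPP1R3B, which brings a phosphatase to glycogen and promotes its synthesis, had 71.5, 38, 49.7 and 23.3 CPM in surfactant livers, against 326, 209.9, 430.2 and 289 CPM in unventilated livers (log2 fold change -2.78 ± 0.41 SE, adjusted p = 0.00034). PGM1, which links glucose 1-phosphate and glucose 6-phosphate, averaged 11.4 ± 2.13 CPM in surfactant and 57.4 ± 18 CPM in unventilated livers (log2 fold change -2.33, adjusted p = 4.51e-05). PHKA2, a subunit of liver phosphorylase kinase, averaged 4.82 ± 0.549 CPM in surfactant and 22.7 ± 3.63 CPM in unventilated livers (log2 fold change -2.24, adjusted p = 2.8e-05). None of these 5 genes overlapped between the groups, which also held for 5623 of all 6911 called genes. SLC13A5, the citrate importer of hepatocytes, was among the genes of smallest p, at 174, 273, 107 and 344 CPM in surfactant livers, against 5.93, 4.98, 5.06 and 6.61 CPM in unventilated livers (log2 fold change 5.31 ± 0.35 SE, adjusted p = 2.79e-06).

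In fat metabolism 10 of 23 tested oxidation and ketogenesis genes were called lower and 6 higher. Oxidation counts were 4 lower and 4 higher with age as a covariate, and 0 lower and 2 higher within 127 days. CPT1A, which admits fatty acids to the mitochondrion, averaged 145 ± 49.9 CPM in surfactant and 71 ± 4.73 CPM in unventilated livers and was called higher, whereas its partner CPT2 averaged 31.3 ± 12.4 CPM in surfactant and 97.2 ± 12.6 CPM in unventilated livers and was called lower. ACSL1, which activates long-chain fatty acids, had 363, 881, 934 and 1161 CPM in surfactant livers, against 136, 109.6, 93.9 and 97.8 CPM in unventilated livers (log2 fold change 2.93 ± 0.30 SE, adjusted p = 2.79e-05). EHHADH, of the peroxisome, had 167, 68.7, 99.2 and 63.3 CPM in surfactant livers, against 374, 285, 503 and 360.4 CPM in unventilated livers (log2 fold change -1.94 ± 0.29 SE, adjusted p = 0.000332). Of 18 tested synthesis genes 9 were called lower, or 5 without animal 057, and 4 higher. Synthesis counts were 3 lower and 1 higher with age as a covariate, and 2 lower and 1 higher within 127 days. LPIN1, a phosphatidate phosphatase, had 115, 41, 18 and 34.4 CPM in surfactant livers, against 5.83, 3.29, 6.88 and 2.46 CPM in unventilated livers (log2 fold change 3.50 ± 0.64 SE, adjusted p = 0.00124), with animal 007 highest. DGAT2, which adds the last acyl chain to triglyceride, had 23.5, 11.6, 8.44 and 7.51 CPM in surfactant livers, against 148, 115, 130.2 and 131 CPM in unventilated livers (log2 fold change -3.36 ± 0.35 SE, adjusted p = 3.34e-05). Of 22 tested oxidative phosphorylation genes 11 were called lower and 1 higher, with a median log2 fold change of -0.36 and 0 past the test against a 2-fold change, and 7 were called lower without animal 057 or without animal 059. Only 2 were called lower with age as a covariate and 1 within 127 days.

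Hormone and iron genes were called in both directions. Of 12 tested IGF and insulin genes 4 were called higher and 2 lower, of 7 thyroid hormone genes 2 and 3, and of 17 iron and haem genes 5 and 4. Shares higher were 33.3, 28.6 and 29.4%, against 21.6% of all tested genes. Shares lower were 16.7, 42.9 and 23.5%, against 19.5%. With lists this small the counts are not read as a result about the lists. The 4 IGF genes became 2 without animal 057, 058 or 060, and the 2 lower became 1 without animal 051, 057, 059 or 060. The 2 thyroid genes became 1 without animal 049, 051, 057, 058 or 059, and the 5 iron genes became 3 without animal 032, 057, 059 or 060. IGF, thyroid and iron counts were 2, 0 and 3 higher and 1, 0 and 1 lower with age as a covariate, and 2, 0 and 2 higher and 0 lower in each within 127 days. IGFALS, the subunit that stabilises circulating IGF-I, had 16.3, 17.2, 12.9 and 7.77 CPM in surfactant livers and 119.9, 59.9, 79.4 and 79.4 CPM in unventilated livers (log2 fold change -2.64 ± 0.29 SE, adjusted p = 5.13e-05). IGF1 itself was not called, at 52.3, 107, 80.2 and 69.1 CPM in surfactant livers and 131, 79, 125 and 105 CPM in unventilated livers. IRS2, the insulin receptor substrate of the liver, had 21.3, 36.3, 24 and 39.1 CPM in surfactant livers, against 4.87, 5.8, 3.65 and 5.54 CPM in unventilated livers (log2 fold change 2.60 ± 0.22 SE, adjusted p = 8.76e-06). IGFBP1, a binding protein that insulin suppresses, averaged 2816 ± 450.0 CPM in surfactant and 333 ± 29.2 CPM in unventilated livers. DIO3, which inactivates thyroid hormone, stayed low in absolute terms, at 0.612, 4.38, 4 and 3.14 CPM in surfactant livers, against 0.434, 0.137, 0.235 and 0.134 CPM in unventilated livers (log2 fold change 3.66 ± 0.61 SE, adjusted p = 0.000703). Animal 007 was near the unventilated livers. HAMP, the gene of the iron hormone hepcidin, had 135, 216, 428 and 469 CPM in surfactant livers, against 43.8, 37.8, 89.1 and 32.6 CPM in unventilated livers (log2 fold change 2.62 ± 0.44 SE, adjusted p = 0.000756). Of the genes that control it, BMP6 had 8.84, 16.3, 31 and 23.6 CPM in surfactant livers, against 2.75, 3.38, 2.59 and 2.5 CPM in unventilated livers (log2 fold change 2.83 ± 0.35 SE, adjusted p = 0.000114), while the co-receptor gene HFE2 had 11.1, 14.1, 12.1 and 4.22 CPM in surfactant livers, against 49.7, 49.7, 85.7 and 45.1 CPM in unventilated livers (log2 fold change -2.47 ± 0.33 SE, adjusted p = 0.000181). ID1, another target of BMP signalling, was lower, at 17.1 ± 3.87 CPM in surfactant and 42.7 ± 15.1 CPM in unventilated livers.

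**Figure D4:**
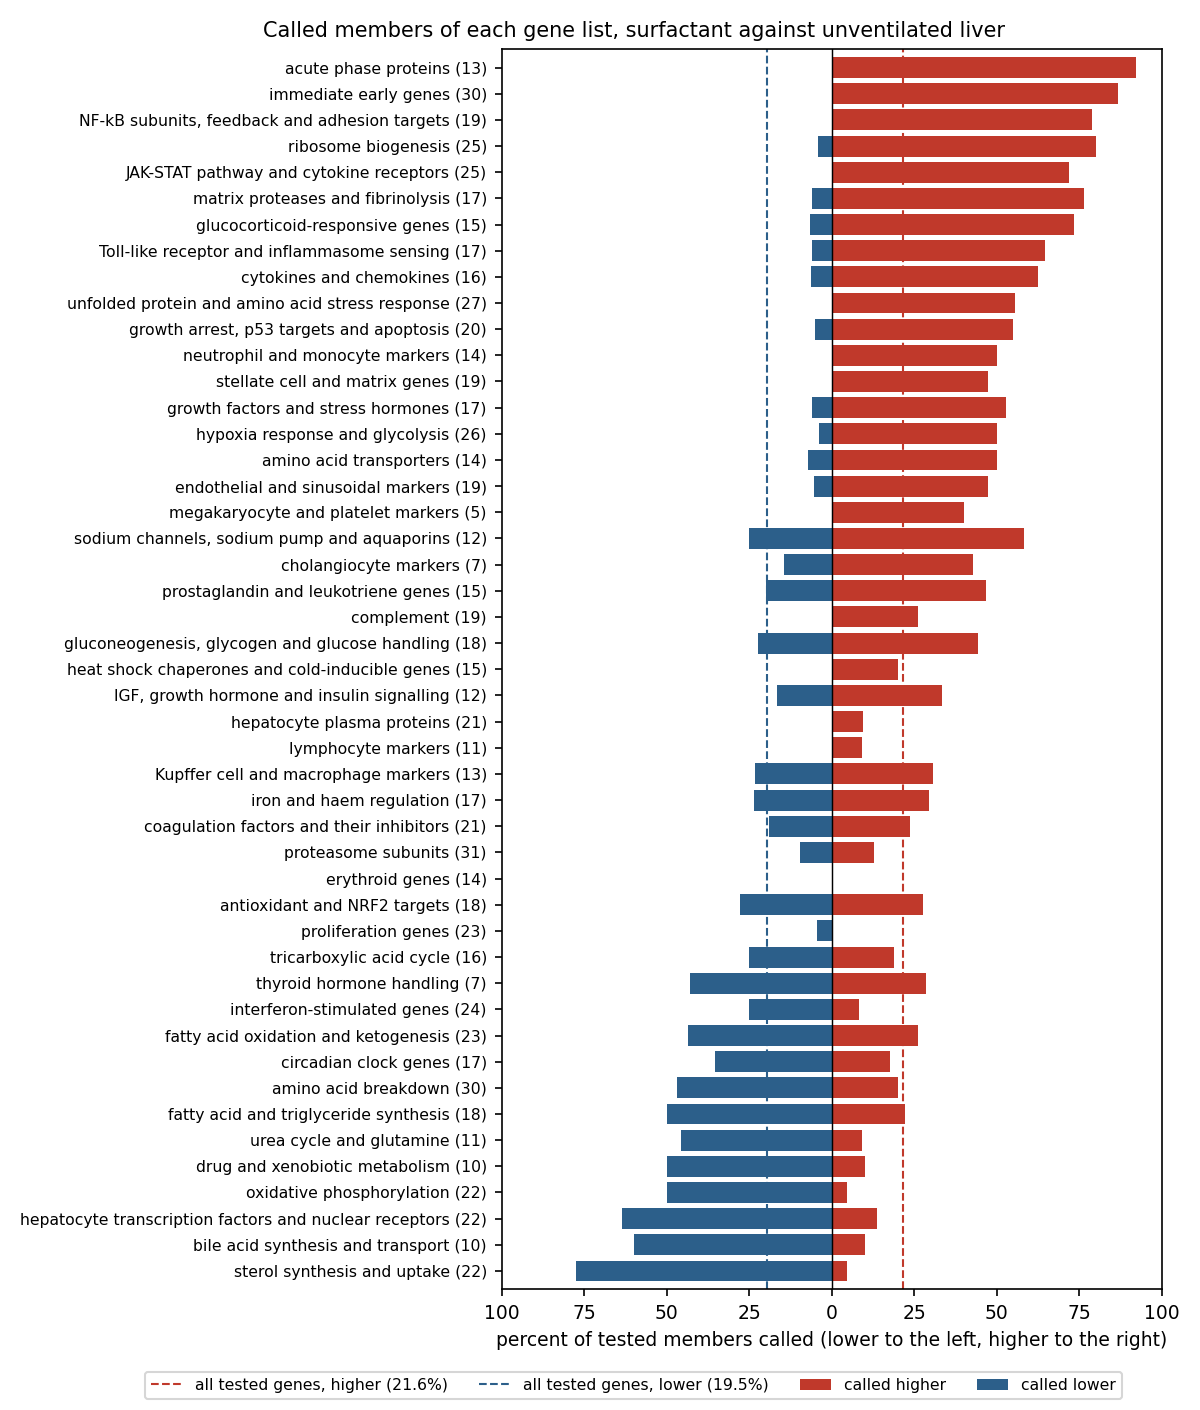
Percent of the tested members of each gene list called higher (to the right) and lower (to the left) in surfactant livers, with the number tested in brackets and dashed lines at the shares of all tested genes, 21.6% and 19.5%. Acute phase, immediate early and NF-kB lists lie at one end and sterol synthesis, bile acid and hepatocyte transcription factor lists at the other.

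Immediate early genes were mostly called higher. Of 30 tested immediate early genes 26 were called higher and 0 lower, with 7 called with age as a covariate and 6 within 127 days. BTG1, an antiproliferative gene, averaged 1284 ± 335 CPM in surfactant and 263 ± 42.9 CPM in unventilated livers. FOS, the classic member, had 7.12, 31, 146 and 108 CPM in surfactant livers and 6.46, 4.15, 23.1 and 5.27 CPM in unventilated livers (log2 fold change 2.92 ± 0.81 SE, adjusted p = 0.0132), so animal 007 fell inside the unventilated range. The 3 GADD45 genes, which respond to stress and growth arrest, were all called higher, among 11 of 20 tested growth arrest, p53 and apoptosis genes called higher and 1 lower. The 11 became 7 with age as a covariate and 3 within 127 days. GADD45A had 208, 306, 901 and 402 CPM in surfactant livers, against 26.2, 33.6, 17.3 and 21.3 CPM in unventilated livers (log2 fold change 4.21 ± 0.48 SE, adjusted p = 6.51e-05), GADD45B had 35, 66.3, 175 and 78 CPM in surfactant livers, against 3.47, 2.78, 4.17 and 1.74 CPM in unventilated livers, and GADD45G had 29.6, 61, 52.3 and 55 CPM in surfactant livers, against 3.18, 1.51, 2.29 and 1.38 CPM in unventilated livers (log2 fold change 4.57 ± 0.34 SE, adjusted p = 5.62e-06). CDKN1A, the gene of the cell cycle inhibitor p21, was less uniform, at 22.5, 56.1, 228 and 134 CPM in surfactant livers, against 11.3, 13.2, 30.7 and 18.7 CPM in unventilated livers (log2 fold change 2.58 ± 0.60 SE, adjusted p = 0.00494), with animal 007 inside the unventilated range.

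ERN1, the sensor IRE1 of unfolded protein in the endoplasmic reticulum, was among the genes of smallest p and was even across animals, at 763, 991, 776 and 1007 CPM in surfactant livers, against 121, 87.8, 125 and 102 CPM in unventilated livers (log2 fold change 3.02 ± 0.17 SE, adjusted p = 1.05e-06). WFS1, a membrane protein of the same compartment but not a member of the list below, had 138, 249, 242 and 280.0 CPM in surfactant livers, against 14.5, 12.2, 17.6 and 9.78 CPM in unventilated livers (log2 fold change 4.07 ± 0.26 SE, adjusted p = 1.92e-06). Of 27 tested genes of the unfolded protein and amino acid stress response 15 were called higher and 0 lower, with 5 called with age as a covariate and 5 within 127 days. Of 25 tested ribosome biogenesis genes 20 were called higher and 1 lower, with a median log2 fold change of 0.86, and 5 were called higher with age as a covariate and 2 within 127 days. GNL3, which encodes nucleostemin, averaged 64 ± 15.2 CPM in surfactant and 19.2 ± 1.17 CPM in unventilated livers, and RRP9, a processing factor for ribosomal RNA, had 13, 17.3, 27.2 and 40.5 CPM in surfactant livers, against 3.85, 3.56, 4.17 and 3.13 CPM in unventilated livers (log2 fold change 2.74 ± 0.30 SE, adjusted p = 5.13e-05). PPAT, the committed step of purine synthesis, had 129.9, 189, 190.3 and 208 CPM in surfactant livers, against 15.2, 15.8, 13.4 and 12.9 CPM in unventilated livers (log2 fold change 3.64 ± 0.20 SE, adjusted p = 1.05e-06). Proteasome subunits did not move as a list, with 4 of 31 called higher and 3 lower, shares below those of all genes. The count of those higher ran from 1 without animal 049, 051 or 060 and 2 without animal 057 or 059 to 8 without animal 007, and the 3 lower became 1 without animal 057, 059 or 060. Neither fit for age called any proteasome gene.

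Hypoxia and glycolysis genes were highest in animal 049. Of 26 tested 13 were called higher and 1 lower, 3 higher with age as a covariate and 2 within 127 days. PFKFB3, which drives glycolytic flux, had 21.8, 76.2, 207 and 90.5 CPM in surfactant livers, against 3.66, 4.61, 4.17 and 5.4 CPM in unventilated livers (log2 fold change 4.47 ± 0.52 SE, adjusted p = 7.79e-05). VEGFA, a vascular growth factor, was not called, at 69.2, 101, 202 and 98 CPM in surfactant livers, against 77.9, 69.2, 82 and 69 CPM in unventilated livers, though without animal 007 its adjusted p was 0.0103. SLC2A1, a glucose transporter, was not called either, at 37.9, 92, 139.6 and 135 CPM in surfactant livers, against 133, 259.7, 75.7 and 90.4 CPM in unventilated livers. CA9, another textbook hypoxia target, was the 1 list member called lower, at 2.89, 4.26, 6.55 and 4.07 CPM in surfactant livers, against 25.8, 16.2, 19.1 and 14.2 CPM in unventilated livers (log2 fold change -2.08 ± 0.31 SE, adjusted p = 0.000358). STC1, a secreted glycoprotein outside this list, had 2.72, 25, 286 and 23.4 CPM in surfactant livers, against 1.88, 3.06, 2.47 and 2.28 CPM in unventilated livers, so animal 049 stood far above the others and animal 007 lay within the unventilated range.

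Secreted and matrix-remodelling genes had some of the largest folds. Of 17 tested matrix protease and fibrinolysis genes 13 were called higher and 1 lower, and of 17 tested growth factors and stress hormones 9 were called higher and 1 lower. Protease and growth factor counts were 3 and 6 higher with age as a covariate, and 2 and 2 within 127 days. ADAMTS4, a protease of proteoglycans, had 30.1, 179, 1177 and 1104 CPM in surfactant livers and 1.16, 2.01, 1.29 and 1.12 CPM in unventilated livers (log2 fold change 8.79 ± 1.12 SE, adjusted p = 0.000131). SPP1, the osteopontin gene, had 42.5, 529, 1296 and 1799 CPM in surfactant livers, against 2.94, 2.78, 2.59 and 1.92 CPM in unventilated livers (log2 fold change 8.48 ± 1.06 SE, adjusted p = 0.000114). In both genes animals 049 and 051 were highest and animal 007 lowest. SPP1 was counted with the cholangiocyte markers and not in either list of this paragraph.

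EREG, a ligand of the EGF receptor, had 4.39, 21.6, 71.9 and 49.9 CPM in surfactant livers, against 0.289, 0.183, 0 and 0.268 CPM in unventilated livers (log2 fold change 7.53 ± 0.98 SE, adjusted p = 0.00015). INHBA, the activin A subunit, had 36.6, 77.4, 131 and 96.5 CPM in surfactant livers, against 6.02, 4.84, 8.35 and 6.25 CPM in unventilated livers (log2 fold change 3.75 ± 0.40 SE, adjusted p = 4.12e-05). FST, whose product follistatin binds activin, had 107, 225, 223 and 221 CPM in surfactant livers, against 10.5, 15.2, 12.1 and 24.8 CPM in unventilated livers (log2 fold change 3.63 ± 0.33 SE, adjusted p = 1.44e-05). FGF23, a phosphate-regulating hormone better known from bone, had 0.778, 44.5, 219 and 13.5 CPM in surfactant livers, against 0.0482, 0.0913, 0 and 0 CPM in unventilated livers (log2 fold change 10.65 ± 2.13 SE, adjusted p = 0.00208). Animal 049 was highest. FGF23, and TGM3 and PTGS2 below, were not members of the protease or growth factor lists. TGM3, a transglutaminase, had 2.45, 1073, 604 and 570.1 CPM in surfactant livers, against 1.98, 0.365, 0.353 and 0.0893 CPM in unventilated livers, so animal 007 stayed near the unventilated level and the other 3 surfactant livers lay far above it. PTGS2, the inducible cyclooxygenase, had 9.28, 31.6, 851 and 766 CPM in surfactant livers, against 6.36, 6.71, 6.35 and 8.31 CPM in unventilated livers (log2 fold change 5.90 ± 1.19 SE, adjusted p = 0.00221).

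Of 12 tested ion transport genes 7 were called higher and 3 lower. The share called higher was above the 21.6% of all tested genes. The share called lower was near the 19.5% of all tested genes, so it is not read as a fall of the list. Transport counts were 3 higher and 3 lower with age as a covariate, and 2 higher and 0 lower within 127 days. SCNN1G and SCNN1B, subunits of the epithelial sodium channel, had 1.06, 34.9, 4.16 and 112 CPM and 3.22, 12.3, 4.33 and 26.9 CPM in surfactant livers, against 0 counts for SCNN1G and 0.385, 0, 0.176 and 0.134 CPM for SCNN1B in unventilated livers. Animals 032 and 051 were the highest for both. ATP1B1, a sodium pump subunit, averaged 435 ± 198 CPM in surfactant and 68.3 ± 3.1 CPM in unventilated livers. AQP3 and AQP11, which are water channels, were called lower (log2 fold change -2.49, adjusted p = 0.000866 and log2 fold change -2.41, adjusted p = 9.37e-05).

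Among the large falls were genes of cell-surface and developmental signals. SDC1, the syndecan that clears lipoprotein remnants, had 2.89, 2.94, 2.94 and 1.23 CPM in surfactant livers, against 31.3, 25.4, 46.3 and 23.7 CPM in unventilated livers (log2 fold change -3.66 ± 0.31 SE, adjusted p = 8.01e-06). RNF43, a ubiquitin ligase that removes Wnt receptors, had 11.1, 3.3, 4.16 and 1.9 CPM in surfactant livers, against 61.1, 50.3, 73.2 and 65.3 CPM in unventilated livers (log2 fold change -3.61 ± 0.45 SE, adjusted p = 0.000106). IHH, a hedgehog ligand, had 3, 0.9, 0.444 and 0.154 CPM in surfactant livers, against 14.9, 14.7, 14.5 and 24 CPM in unventilated livers (log2 fold change -3.92 ± 0.68 SE, adjusted p = 0.000892). GAS2, a cytoskeletal protein gene, had 1, 0.96, 0.777 and 0.669 CPM in surfactant livers, against 19.6, 8.99, 11.8 and 8.62 CPM in unventilated livers (log2 fold change -3.84 ± 0.35 SE, adjusted p = 1.26e-05). BTLA, an inhibitory receptor of lymphocytes, had 1.28, 0.78, 0.444 and 0.617 CPM in surfactant livers, against 17, 21.7, 3.94 and 10.3 CPM in unventilated livers (log2 fold change -4.08 ± 0.54 SE, adjusted p = 0.000162), beside 1 of 11 tested lymphocyte markers called higher and 0 lower. These genes did not overlap between the groups, nor did 6299 of all 16824 tested genes. The largest changes were named only where there was no overlap, so this describes the choice of genes and tests nothing.

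Clock-linked genes split. Of 17 tested 6 were called lower, or 3 without animal 059, and 3 higher. That is 35.3% lower and 17.6% higher, against 19.5% and 21.6% of all tested genes. Clock counts were 1 lower and 1 higher with age as a covariate, and 0 lower and 1 higher within 127 days. NFIL3, a repressor that responds to cytokines, had 119, 327, 704 and 557 CPM in surfactant livers, against 18.6, 17.1, 26.8 and 17 CPM in unventilated livers (log2 fold change 4.42 ± 0.48 SE, adjusted p = 4.67e-05). TEF, an activator at the same sites, had 44.3, 28.2, 18.9 and 33.2 CPM in surfactant livers, against 89.1, 78.8, 117 and 93 CPM in unventilated livers (log2 fold change -1.60 ± 0.24 SE, adjusted p = 0.000401). ARNTL, the core activator, was not called, at 17.5, 19, 8.77 and 24.7 CPM in surfactant livers and 16.4, 16.4, 23.2 and 15.9 CPM in unventilated livers. CRY2, a core repressor, had 11.2, 2.46, 2.61 and 2.52 CPM in surfactant livers, against 11.9, 11, 11.6 and 10.8 CPM in unventilated livers, and animal 007 lay within the unventilated range while the other 3 were below it. Its call, at an adjusted p of 0.0477, was lost without any 1 of the other 7 livers (0.0746 to 0.107). It was among the 81 genes called between surfactant livers of 127 and 126 days (log2 2.14, adjusted p = 0.0393). Sampling times of day are not stated in the labels.

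Markers of other liver cells were set beside these results. Of erythroid genes and proliferation genes 0 of 14 and 1 of 23 tested were called, with median log2 fold changes of -0.46 and -0.06. At an unadjusted p under 0.05 edgeR had 0 of the 14, DESeq2 also called 0, and without animal 059 edgeR called 2 erythroid and 5 proliferation genes lower. ALAS2, the erythroid haem enzyme, ran at 106, 302, 237 and 188 CPM in surfactant livers and 239, 467, 70.8 and 271 CPM in unventilated livers, and MKI67, a marker of cycling cells, at 194, 507, 183 and 250.0 CPM in surfactant livers and 329, 619, 107 and 336 CPM in unventilated livers. In both genes animal 059 was the lowest of all 8 livers and animal 058 the highest.

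Of 13 tested Kupffer cell and macrophage markers 4 were called higher and 3 lower, or 2 and 0 with age as a covariate and 1 and 0 within 127 days. In the main comparison 30.8% were called higher and 23.1% lower, against 21.6% and 19.5% of all tested genes. The sum of these markers ran from 1203 to 1364 CPM in surfactant livers and from 973 to 1179 CPM in unventilated livers. C1QA was not called, at 197, 194, 224 and 213 CPM in surfactant livers and 198, 197, 172 and 162 CPM in unventilated livers. ADGRE1, a list member outside the 140 genes counted as named, averaged 114.0 CPM in surfactant and 31.88 CPM in unventilated livers and was called higher. It was the 1 list member past the test against a 2-fold change. MARCO, a scavenger receptor, averaged 56.4 ± 19.5 CPM in surfactant and 25.9 ± 10 CPM in unventilated livers and was called higher, whereas CLEC4F and TIMD4, markers of resident Kupffer cells in mice, averaged 47.8 ± 13.9 CPM in surfactant and 87.6 ± 13.3 CPM in unventilated livers and 25.6 ± 8.17 CPM in surfactant and 43.6 ± 8.29 CPM in unventilated livers and were called lower, TIMD4 losing its call without any 1 of animals 049, 051 and 058 (adjusted p = 0.0555 to 0.0661). S100A8, from neutrophils and monocytes, had 38, 50.3, 28.3 and 86 CPM in surfactant livers, against 14.3, 27.4, 8.23 and 13.2 CPM in unventilated livers (log2 fold change 1.68 ± 0.38 SE, adjusted p = 0.00444). Animal 058 nearly reached the lowest surfactant liver.

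Of 19 tested endothelial markers 9 were called higher and 1 lower, and of 19 tested stellate cell and matrix genes 9 were called higher and 0 lower. Endothelial and stellate counts were 3 and 5 higher with age as a covariate, and 1 and 3 within 127 days. LYVE1, of sinusoidal endothelium, averaged 268 ± 60.3 CPM in surfactant and 97.4 ± 21.8 CPM in unventilated livers, and STAB2, of the same cells, was not called at 198 ± 48.8 CPM in surfactant and 157 ± 34.2 CPM in unventilated livers. COL4A1, a basement membrane collagen, averaged 472 ± 139 CPM in surfactant and 163 ± 10.7 CPM in unventilated livers and PDGFRA, a receptor on mesenchymal cells, 174 ± 38.3 CPM in surfactant and 39.9 ± 10.6 CPM in unventilated livers, while DES, the stellate cell filament gene, was not called at 11.2 ± 2.2 CPM in surfactant and 11 ± 2.54 CPM in unventilated livers. GP1BA, known as a platelet receptor subunit, had 525, 403, 366 and 606 CPM in surfactant livers, against 68.8, 57, 65.5 and 82.5 CPM in unventilated livers (log2 fold change 2.80 ± 0.21 SE, adjusted p = 5.62e-06), one of 2 of 5 platelet-lineage markers called higher, or of 1 without animal 032, 049, 051, 059 or 060 and in either fit for age, while PF4 and ITGA2B, other genes of that lineage, were not called (log2 fold change -0.12, adjusted p = 0.773 and log2 fold change 0.17, adjusted p = 0.466). The part of any of these cells in the other results was not tested.

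**Figure D5:**
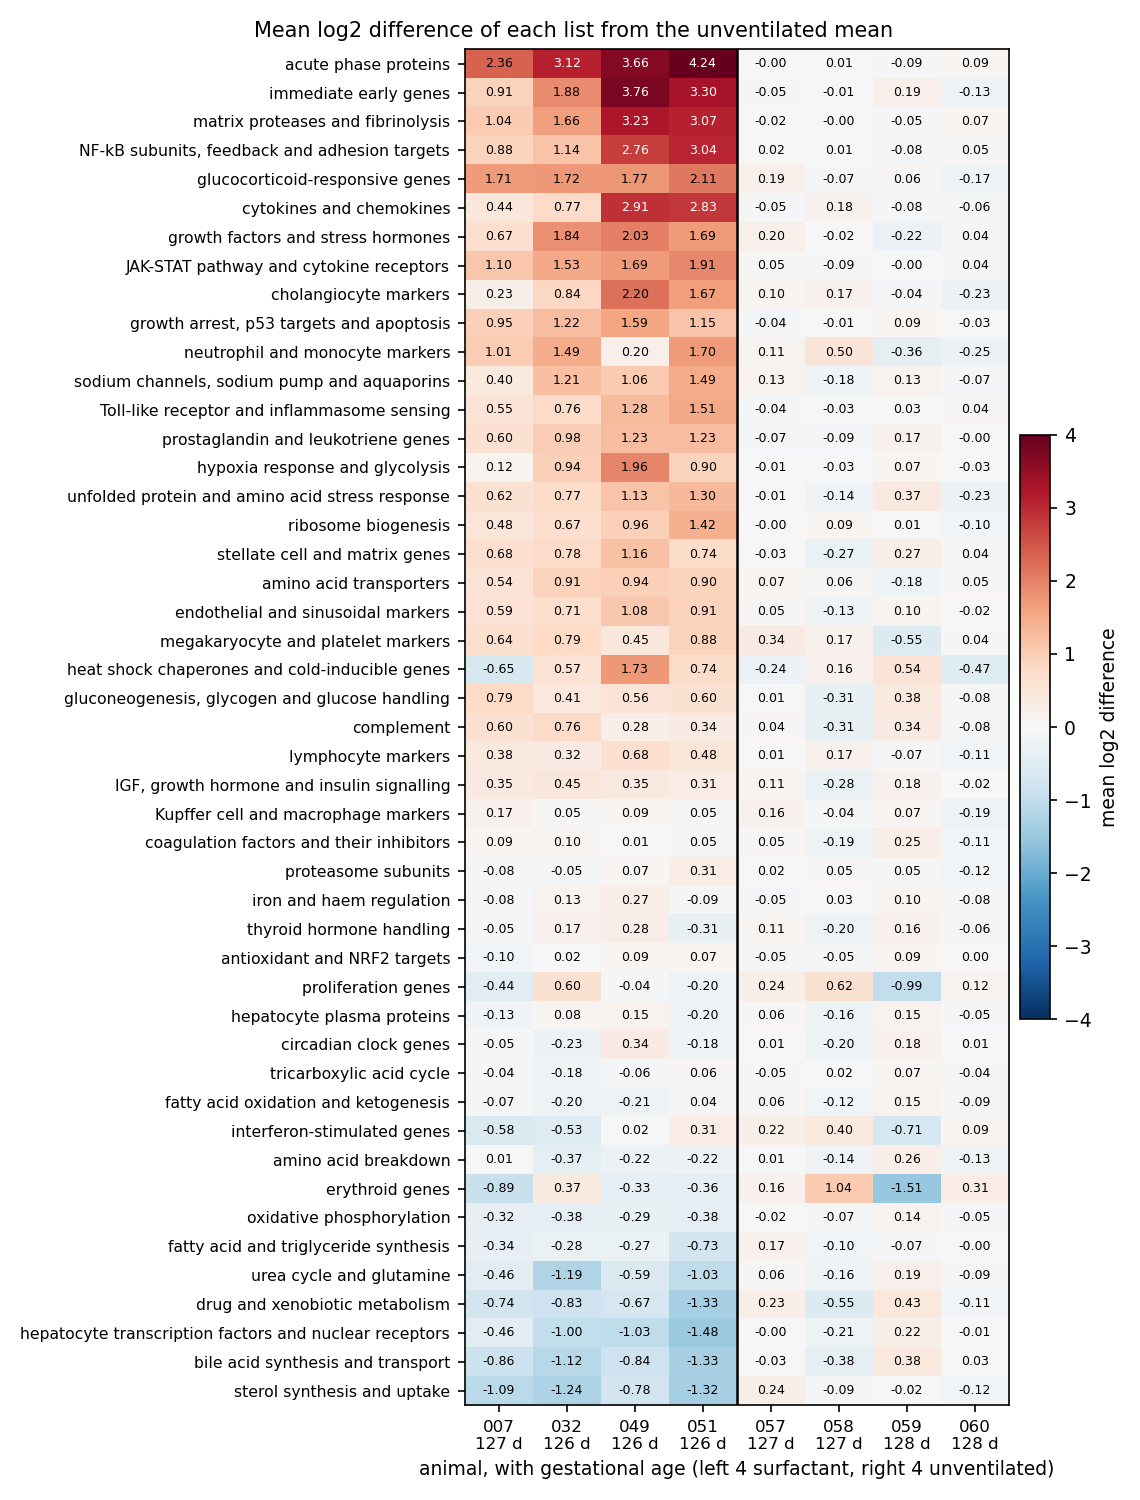
Mean log2 difference of each gene list from the mean of the 4 unventilated livers, 1 column per liver with surfactant to the left and 1 row per list, red above and blue below 0. The acute phase list stands at 2.36 to 4.24 in the surfactant livers, the cytokine list at 0.44 and 0.77 in animals 007 and 032 and at 2.91 and 2.83 in animals 049 and 051, and the erythroid list differs more among the unventilated livers, -1.51 to 1.04, than between the groups.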

How the data were processed

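Total RNA was extracted with Trizol and poly-A selected before paired-end sequencing, per the labels' protocols. The submitters' processing notes name Bowtie2, featureCounts and edgeR; no label used here states a version, genome build or strand setting, so reads of overlapping or antisense genes cannot be told apart. The values used were the authors' deposited whole-number counts per gene and liver library, with 27716 feature names, of which 15016 are symbols in a RefSeq gene table. No sequences were used.

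The 12 liver libraries (4 surfactant, 4 budesonide plus surfactant, 4 unventilated) were fitted together by edgeR 4.0.16 in R 4.3.3 (filterByExpr, TMM scaling, robust quasi-likelihood test), so that all 3 groups share 1 estimate of the spread. The contrast was surfactant minus unventilated over 16824 genes, with Benjamini-Hochberg adjustment and a threshold of 0.05. Calls of more than 2-fold used glmTreat at a log2 change of 1. SE is the size of the log2 fold change divided by the root of F. Each library is a separate animal, per the labels, and no label used here names a preparation batch. The floor for genes with 0 counts is 3 counts over the group, and it covers counting error only. The fit was tested on simulated data, where it recovered 1 of 49 changes of 1.5-fold, 17 of 50 of 2-fold and 80 of 98 of 4-fold. Of the calls there 3.92% were false. Far fewer genes changed in that simulation than were called here. The white matter table and list members without a row of their own were not used here, and results of some genes are not reported here.

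The gene lists and the rules for named genes were chosen with earlier results of these data known. Named genes were the largest changes without overlap at 5 CPM or more, the smallest p-values, the most abundant genes, up to 4 called members per direction or the first 3 members of each list, the widest ranges among surfactant livers, genes without counts in all livers of 1 group, and the smallest p-values between age classes. Alternatives were DESeq2 1.42.0, median-ratio scaling, other filters on low counts, the 8 livers alone, age or sex as a covariate, 127 days alone, and each liver left out.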

Additional observations from a re-analysis of the deposited data

Results flagged for a closer look

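Within each group of 4 livers, the highest or lowest value was compared with its nearest neighbour on the log2 scale by Dixon's ratio for 140 named genes. It passed the critical value in 12 of 280 groups of values, and chance alone passes about 1 in 20. Each is given as the CPM of the liver that stood apart.

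In the surfactant group, animal 007 stood apart for CRY2 at 11.2 CPM, for FST at 106.9 CPM and for TGM3 at 2.45 CPM. Animal 032 stood high for AFP at 2071.2 CPM, animal 049 high for FDPS at 4.44 CPM and for SQLE at 25.3 CPM, and animal 051 low for SDC1 at 1.23 CPM. In FST, TGM3, FDPS, SQLE and SDC1 these livers still lay on the same side of the whole unventilated group as the other surfactant livers, while in CRY2 and AFP they lay within its range.

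In the unventilated group, animal 059 stood high for ARNTL at 23.2 CPM, for C4BPA at 154.5 CPM and for HFE2 at 85.7 CPM, and low for LBP at 8.11 CPM. Animal 060 stood high for IHH at 24.0 CPM. Without animal 059 the log2 fold change of LBP was 5.84, against 6.16 with it.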

How the results depend on the processing

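Age, sex and single livers set the main limits. With gestational age as a covariate 881 genes were called higher and 517 lower, and 180 and 57 past the test against a 2-fold change. With sex as a covariate, without animal 060, the counts were 2231 and 2042, and 423 and 198. Within 127 days they were 455 and 122, and 98 and 8. DESeq2 called 224 genes as more than 2-fold lower. Leaving out each liver in turn gave 2943 to 4066 genes higher and 2551 to 4043 lower, and 697 to 1406 and 253 to 798 past the test against a 2-fold change, the highest of each without animal 007, and 253 without animal 051. The counts by median-ratio scaling, by other filters and in the 8 livers alone, and the other 3 counts of DESeq2, stayed within 1.5 times those of the main comparison. Between surfactant livers of 127 and 126 days 242 genes were called without a filter on low counts, against 81 with it. Of the 116 named genes that were called, 55 kept their call and their direction under every alternative that tested them, and 61 lost the call under at least 1, with 0 reversed. By alternative, 38 lost it with age, 60 within 127 days, 12 with sex, 1 by median-ratio scaling (HNF4A), 1 in the 8 livers alone and 1 without a filter (both CRY2). Of 24 named genes not called, 2 gained a call under some alternative. List counts of 0 or 1 also moved when a liver was left out, to at most 5 (proliferation genes lower, without animal 059). The cause of these changes was not tested.

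No paired analysis was possible because the surfactant and unventilated livers share no animal number. With 4 livers a group, a gene that missed the threshold is not shown to be unchanged.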

Other observations

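Antioxidant genes did not move one way: 5 of 18 tested were called higher and 5 lower. Both shares were 27.8%, against 21.6% higher and 19.5% lower over all tested genes. The higher count was 3 without animal 051, and the lower 3 without animal 049, 057, 058 or 060. Antioxidant counts were 2 higher and 0 lower with age as a covariate, and the same within 127 days. SOD2, the mitochondrial superoxide dismutase, had 294, 783, 1110.2 and 2041 CPM in surfactant livers, against 71.7, 53.2, 53.7 and 75 CPM in unventilated livers (log2 fold change 4.06 ± 0.48 SE, adjusted p = 8.58e-05). CAT, the peroxisomal catalase, went the other way, at 251, 157, 213 and 125 CPM in surfactant livers, against 543, 455, 829.7 and 523 CPM in unventilated livers (log2 fold change -1.66 ± 0.26 SE, adjusted p = 0.000429), and so did NQO1, an NRF2 target, at 5.89, 6.24, 3.83 and 2.42 CPM in surfactant livers, against 16.9, 14.1, 24.1 and 12.6 CPM in unventilated livers. Interferon-stimulated genes were called lower in 6 of 24, or 10 without animal 059, and higher in 2. Interferon counts were 1 lower and 0 higher in both fits for age. IFIT1, an antiviral effector, had 9.51, 11.3, 15.4 and 18.3 CPM in surfactant livers, against 35.5, 57.1, 7.94 and 43.3 CPM in unventilated livers (log2 fold change -1.40 ± 0.47 SE, adjusted p = 0.031), and lost its call without any 1 of animals 007, 032, 049, 057, 058 and 060 (adjusted p = 0.0518 to 0.0963). Its family member IFIT2 had 32.8, 410.5, 514 and 882 CPM in surfactant livers, against 24.7, 27.8, 17.8 and 21.3 CPM in unventilated livers (log2 fold change 4.33 ± 0.99 SE, adjusted p = 0.00437). Of 17 tested Toll-like receptor and inflammasome genes 11 were called higher and 1 lower, among them TLR4, the endotoxin receptor, at 11.3, 18.1, 49.5 and 60 CPM in surfactant livers, against 6.6, 5.8, 4.29 and 5.63 CPM in unventilated livers. The 11 became 3 with age as a covariate and 1 within 127 days.

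Of 10 tested drug metabolism genes 5 were called lower and 1 higher, with 1 in each direction in both fits for age. FMO5, a flavin monooxygenase, averaged 6.62 ± 2.51 CPM in surfactant livers and 38.3 ± 26.8 CPM in unventilated livers. Of 15 tested prostaglandin and leukotriene genes 7 were called higher and 3 lower, the 3 becoming 0 without animal 049 or 059 and 1 without animal 051 or 057. Their counts were 3 higher and 0 lower with age as a covariate, and 0 in both directions within 127 days. PTGER3, a prostaglandin E receptor, had 72.4, 124, 68 and 104 CPM in surfactant livers, against 27.1, 5.84, 6.35 and 10.5 CPM in unventilated livers (log2 fold change 2.89 ± 0.48 SE, adjusted p = 0.000677). Of 15 tested glucocorticoid-responsive genes 11 were called higher and 1 lower, with 6 called higher with age as a covariate and 4 within 127 days. Tricarboxylic acid cycle genes stayed near the background, with 3 of 16 called higher, or 1 without animal 051 or 057, and 4 lower, or 2 without animal 058 or 059. Cycle counts were 1 higher and 0 lower with age as a covariate, and 0 within 127 days. Of 15 heat shock and cold-inducible genes 3 were called higher, or 7 without animal 007, and 0 in either fit for age. HSPA1A, the inducible HSP70, was not called, at 16.5, 258, 705 and 149 CPM in surfactant livers and 39.4, 161, 289 and 39.4 CPM in unventilated livers, and animals of both groups ran high. Of 7 cholangiocyte markers 3 were called higher, or 1 without animal 049 and in either fit for age, and 1 lower.

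Some genes of smallest p have no place in these lists. AASDH, a gene named for aminoadipate-semialdehyde dehydrogenase, had 301, 259.6, 208 and 350.2 CPM in surfactant livers, against 27.3, 25.4, 21.8 and 22.5 CPM in unventilated livers (log2 fold change 3.53 ± 0.21 SE, adjusted p = 1.05e-06). RIMBP2, better known from synapses, had 144, 107, 97.9 and 150.5 CPM in surfactant livers, against 3.85, 8.49, 5.29 and 5.05 CPM in unventilated livers (log2 fold change 4.46 ± 0.26 SE, adjusted p = 1.05e-06). KBTBD11 had 46.7, 84, 87.2 and 107 CPM in surfactant livers, against 4, 3.93, 3.59 and 4.69 CPM in unventilated livers (log2 fold change 4.32 ± 0.24 SE, adjusted p = 1.05e-06). In these 3 genes animal 007 was far above the unventilated livers. KRT17, a keratin, had 0.389, 1.56, 6.33 and 7.2 CPM in surfactant livers and 0 counts in all 4 unventilated livers, so its mean was at least 93.5-fold higher against the floor of 3 counts.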
